A study of Mus musculus with 25 samples.

Results

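The interaction of diet and genotype after 22 weeks of feeding was examined in mouse aortas: for every gene, the response to a Western diet in Apoe knockout mice was set against the response in mice lacking both Apoe and Apoa1. The contrast used the 12 libraries of 22 weeks, of 25 in the series, in 4 groups of 3, and took the spread of each gene from all 25. EKO mice lack apolipoprotein E and DKO mice lack apolipoprotein E and apolipoprotein A-I, both in the germline, so every group carried the Apoe deletion. The study's methods give the C57BL/6J background for the EKO mice and refer to earlier work for the DKO mice. Mice of each genotype received a normal laboratory diet (NLD, chow) or a high-fat Western diet (WD) from 8 weeks of age, which made them about 30 weeks old at the end of 22 weeks. RNA came from the perfused whole aorta and was sequenced as 50 nt unpaired reads. The difference reported below, named the difference of responses, was (EKO-WD minus EKO-NLD) minus (DKO-WD minus DKO-NLD) on the log2(FPKM + 1) scale, where FPKM is the number of fragments of a gene scaled by transcript length and by all mapped fragments. A positive value means that the response to WD was higher in EKO than in DKO, whether EKO went up, DKO went down, or both.

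Several properties of the libraries bear on these values. EKO-WD replicate 2 is a partial library: its column lists 0 for nearly every gene after a point within chromosome 15 of the text-sorted gene order. Its zeros were taken as missing, which left 8775 of the 12797 tested genes with 2 EKO-WD libraries in place of 3. Libraries of EKO are labelled as a re-analysis of earlier samples and those of DKO are not, and the summed level of cytosolic ribosomal protein genes was 29141 to 34505 FPKM in the EKO libraries of 22 weeks with a value and 13411 to 16091 FPKM in the DKO libraries, so genotype and the way the libraries were made cannot be told apart. A diet response taken within each genotype removes a constant offset of that kind, but not one that differs between the diets. Summed FPKM was 448239 to 556933 in the complete EKO libraries of 22 weeks and 372110 to 415555 in EKO at 6 weeks. DKO libraries of both times held 360421 to 401043 FPKM, and the part of this in the results was not tested. The mice are described as male, yet Xist exceeded Ddx3y in 2 of 3 EKO-NLD, 1 of 2 readable EKO-WD, 1 DKO-NLD and 1 DKO-WD library. Apoa1 was at 0 to 0.555 FPKM in EKO and 0.135 to 0.667 FPKM in DKO, which is too low in both genotypes to check the labels in this tissue. Apoe was at 8.25 to 20.7 FPKM in EKO and 2.97 to 10.7 FPKM in DKO, and its difference of responses was −0.06 ± 0.44 (SE). The depth of the libraries is unknown because FPKM values carry no read counts, and p-values measure the spread between libraries that the labels call replicates.

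Apolipoprotein A-I is the main protein of high-density lipoprotein and the acceptor of cholesterol that macrophages export. Macrophages of the artery wall that take up modified lipoproteins become foam cells: the lipoprotein is carried to the lysosome, an acidic compartment in which hydrolases and cathepsins break down its lipids and proteins, a vacuolar proton pump keeps the pH low, and lysosomal acid lipase frees cholesterol from its esters. Many lysosomal genes carry a palindromic E-box, CACGTG, near their start sites, and the transcription factors of the TFEB and MITF family are known to bind such sites. In a lesion these cells lie beside smooth muscle cells and fibroblasts, which make the collagens and elastic fibres of the wall, and beside other leukocytes. In whole aorta, fewer cells of a type and less RNA per cell cannot be told apart.

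Because genes of the lysosome carried many of the differences of responses described below, the E-box was searched for in their promoters, using RefSeq gene starts of build GRCm38.p6 and a window from 250 bases before to 50 bases after the start. The following 4 promoters are shown from the base 250 positions before the start to the base just before it, 5′ to 3′ on the gene's strand, with CACGTG in capitals. They belong to the lysosomal gene with the smallest p in each of 4 lists among those with 1 listed promoter and an E-box before the start. Ctsd encodes cathepsin D, an aspartic protease, Atp6v1a the catalytic subunit of the proton pump, Gla alpha-galactosidase A, and Igf2r the cation-independent mannose 6-phosphate receptor that delivers hydrolases to the lysosome.
Ctsd, chr7:142387828-142388077, minus strand, E-boxes starting at −245 and −98: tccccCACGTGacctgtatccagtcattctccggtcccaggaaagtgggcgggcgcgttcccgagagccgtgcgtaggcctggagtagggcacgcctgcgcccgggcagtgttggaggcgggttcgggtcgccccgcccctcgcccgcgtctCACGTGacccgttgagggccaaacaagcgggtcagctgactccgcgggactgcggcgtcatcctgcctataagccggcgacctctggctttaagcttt
Atp6v1a, chr16:44139260-44139509, minus strand, E-box starting at −131: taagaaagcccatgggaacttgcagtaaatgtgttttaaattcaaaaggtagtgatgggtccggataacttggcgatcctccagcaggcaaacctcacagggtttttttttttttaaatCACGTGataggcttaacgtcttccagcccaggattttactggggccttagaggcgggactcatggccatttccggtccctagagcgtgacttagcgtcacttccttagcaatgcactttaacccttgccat
Gla, chrX:134601006-134601255, minus strand, E-boxes starting at −227 and −194: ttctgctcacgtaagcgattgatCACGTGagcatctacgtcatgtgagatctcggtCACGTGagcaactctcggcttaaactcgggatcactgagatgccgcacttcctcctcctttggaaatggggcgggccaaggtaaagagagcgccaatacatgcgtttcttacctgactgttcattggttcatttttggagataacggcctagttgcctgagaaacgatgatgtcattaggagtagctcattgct
Igf2r, chr17:12769707-12769956, minus strand, E-boxes starting at −48 and −7: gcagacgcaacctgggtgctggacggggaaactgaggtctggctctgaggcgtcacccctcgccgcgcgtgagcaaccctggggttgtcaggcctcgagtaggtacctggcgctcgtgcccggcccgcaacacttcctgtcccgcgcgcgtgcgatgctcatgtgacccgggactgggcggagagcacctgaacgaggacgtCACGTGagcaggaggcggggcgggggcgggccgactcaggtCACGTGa

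CACGTG reads the same on both strands and was present in 11.7% of the 9914 tested genes with a listed promoter and in 7.15% of all 32851 promoters of the reference. It was present in 23 of 83 lysosomal genes with a promoter (27.7%). Among lysosomal genes it stood in 9 of 28 whose response was higher in EKO (32.1%) and in 13 of 54 that did not pass the test (24.1%). Among all genes with a higher response in EKO the share was 14.6%, and among those with a lower response 5.81%. The shorter GAGGAA and its reverse complement, the core bound by PU.1 and other ETS factors, stood in 30.6% of tested genes, in 37.1% of genes with a higher and 32.6% of genes with a lower response, and in 15 of 25 general macrophage genes (60%). TGACTCA on either strand, the AP-1 site, stood in 4.6% of tested genes, 6.29% of genes with a higher response and 4.65% of genes with a lower one. A match is a stretch of letters and shows neither binding nor a role in these aortas.

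Genes whose response to WD was higher in EKO than in DKO were counted first. By limma with Benjamini-Hochberg adjustment over all genes, 457 of 12797 genes (3.57%) had a higher response in EKO and 105 (0.821%) a lower one at an adjusted p under 0.05. At an unadjusted p under 0.05, 2815 genes passed, 14.7% of all tested with a higher and 7.28% with a lower response. The same contrast fitted on the 12 libraries alone called 53 and 19 genes, and 62 of the 83 called genes examined singly lost their call there. The median difference of responses over all genes was 0.06, and 7051 of them were positive. Of the 457 genes, 414 went up on WD within EKO by the same test and 432 did not pass it within DKO, so that 408 went up in EKO with no call in DKO. DKO went down in 21 of the 457, and 19 of these were not called in EKO. The median response of the 457 genes was 0.94 in EKO and −0.09 in DKO. Their highest group mean lay in EKO-WD for 435 of 457, and for 401 of 457 both or all 3 EKO-WD libraries lay above all 9 other libraries, which was the case for 1681 of all tested genes (13.1%). Of the 105 genes with a lower response in EKO, 77 went down within EKO and 22 went up within DKO, with median responses of −0.78 in EKO and 0.25 in DKO. EKO-WD lay below all 9 other libraries for 38 of the 105, against 498 of all tested genes (3.89%). The genes were chosen by a contrast that counts EKO-WD as positive, so these positions and medians are a description.

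**Figure D1:**
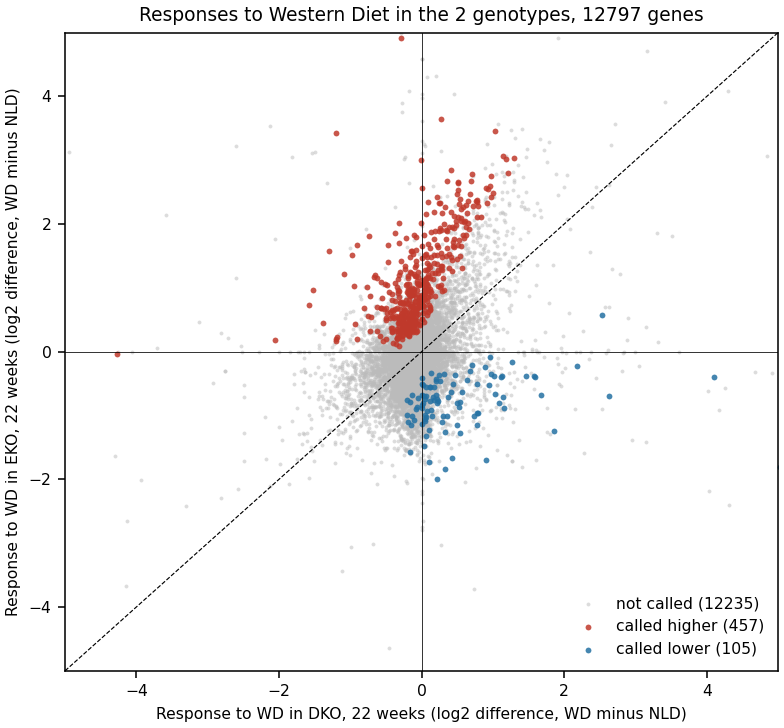
Response to WD at 22 weeks in DKO (x axis) against EKO (y axis), both in log2(FPKM + 1), 1 point per tested gene, with the genes of higher (red) and lower (blue) response in EKO coloured, a dashed line of equal responses and 42 genes outside the plotted range. The genes of higher response lie mostly above 0 in EKO at DKO responses near 0, at a median of 0.94 in EKO and −0.09 in DKO.

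In the plot of the 2 responses, the median of the called genes lay farther from 0 in EKO than in DKO, in both directions. Over all tested genes the EKO and DKO responses had a Pearson r of 0.198 and a Spearman rho of 0.24, a description across genes, which are not independent. Within EKO 1325 genes went up and 1174 down on WD, and within DKO 107 and 115. A gene called in EKO and not in DKO is not thereby different, and only the 457 and 105 genes are reported as such. Of the genes with a higher response, 149 were among the 4022 genes with a value in the partial library and 308 among the 8775 without. Protein-coding genes made up 94.5% of the genes with a higher and 92.4% of those with a lower response, near their 94.6% of all tested genes.

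The lysosome held the largest group of named genes. In 4 lists that together had 107 tested members, 39 had a higher response in EKO and 1, Ctsf, a lower one, with a median difference of 0.62 against 0.06 over all genes. The median response of the 107 genes was 0.54 in EKO and −0.06 in DKO, and 64 went up on WD in EKO and 0 in DKO. At an unadjusted p under 0.05 the 4 lists held 10, 11, 27 and 16 genes with a higher response (cathepsins, proton pump, hydrolases, membrane proteins), of 15, 20, 40 and 32 tested, against 14.7% of all genes. In the same order they held 2, 0, 1 and 1 with a lower response, against 7.28% of all genes. The general macrophage genes moved with these lists: their summed level was 8811.6 to 11361 FPKM in EKO-WD, 1543.2 to 2636 in EKO-NLD, 689.79 to 1788.5 in DKO-NLD and 2072.7 to 2238 in DKO-WD, and the part of macrophage content in the lysosomal differences was not tested.

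Of the lysosomal proteases, 8 of 15 tested members had a higher response in EKO: Ctsk, Ctsd, Ctsl, Ctsb, Tpp1, Lgmn, Ctsa and Ctsh. The list had a median difference of 1.04. Ctsk (chr3:95499210-95509387, GRCm38) encodes cathepsin K, which degrades collagen and elastin. It was at 23.9, 20.4 and 17.4 FPKM in EKO-NLD, 194 and 150 FPKM in EKO-WD, 26.2, 24.9 and 21.4 FPKM in DKO-NLD and 14.3, 42.7 and 22.4 FPKM in DKO-WD. Both readable EKO-WD libraries lay above all others and the 3 remaining groups overlapped. The difference of responses was 3.01 ± 0.49 (SE, adjusted p = 0.00302, limma). Ctsl, which encodes a broad cysteine protease, had a value in all 12 libraries: 243 to 262 FPKM in EKO-NLD, 1508, 1036 and 2133 in EKO-WD, 136 to 275 in DKO-NLD and 109 to 254 in DKO-WD. Ctsd, the aspartic protease whose promoter is shown above, was at 802 to 1049 FPKM in EKO-NLD, 2623 and 3904 in EKO-WD, 501 to 748 in DKO-NLD and 667 to 743 in DKO-WD, a difference of 1.58 ± 0.27. Ctsb, cathepsin B, had a difference of 1.46 ± 0.27 with 1062 to 1645 FPKM in EKO-WD and 218 to 470 in the 9 other libraries. The response of Ctss, cathepsin S of antigen-presenting cells, was 3.48 in EKO and 1.41 in DKO, and their difference of 2.07 ± 0.77 did not pass the test (adjusted p = 0.127). Ctsf, cathepsin F, went the other way: 34.5 to 38.2 FPKM in EKO-NLD, 19.7 and 22 in EKO-WD, 28.3 to 32.1 in DKO-NLD and 24.3 to 28.6 in DKO-WD, a difference of −0.55 ± 0.14. The count of 8 fell to 5 without DKO-NLD replicate 1, DKO-WD replicate 1, EKO-NLD replicate 2 or 3, or EKO-WD replicate 3, and Ctsf was not called without DKO-NLD replicate 1, EKO-NLD replicate 3 or EKO-WD replicate 1.

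Subunits of the vacuolar proton pump moved by smaller amounts, with 5 of 20 tested members higher in EKO (Atp6v1a, Atp6ap2, Atp6v1c1, Atp6v1g1 and Atp6ap1) and a median difference of 0.50. Atp6v1a was at 29, 32.7 and 35.9 FPKM in EKO-NLD, 64.7 and 67.3 in EKO-WD, 31.2, 29.7 and 29.7 in DKO-NLD and 23.8, 28.3 and 30.3 in DKO-WD. Its levels in the 9 libraries outside EKO-WD spanned less than the gap to EKO-WD, and the difference was 1.14 ± 0.16 (adjusted p = 0.00108, limma). Atp6v1c1, another subunit of the cytosolic sector, had values in all 3 EKO-WD libraries: 45, 37.2 and 48.9 FPKM, against 18.8 to 27.4 FPKM in the 9 others. The count was 3 without any 1 of DKO-NLD replicate 1, DKO-WD replicate 1, EKO-NLD replicate 3, EKO-WD replicate 1 and EKO-WD replicate 3.

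Among 40 hydrolases and their activators, 19 had a higher response in EKO and 0 a lower one, with 1 lower at an unadjusted p under 0.05, and a median difference of 0.77. Among the 19 were genes for the degradation of glycosphingolipids (Hexa, Gm2a, Gla, Asah1, Psap, Neu1), glycosaminoglycans and glycoproteins (Galns, Naglu, Gusb, Manba, Fuca2) and lipids or other substrates (Lipa, Pla2g15, Ppt1, Acp2, Pld3). Gla, alpha-galactosidase A, removes galactose from glycosphingolipids. It was at 3.79, 3.44 and 3.07 FPKM in EKO-NLD, 20.3 and 20.3 in EKO-WD, 3.7, 1.94 and 2.11 in DKO-NLD and 1.84, 4.35 and 4.56 in DKO-WD. Both readable EKO-WD libraries lay above all others, and its difference was 1.94 ± 0.35 (adjusted p = 0.00557, limma). Psap encodes prosaposin, the precursor of the activators of sphingolipid hydrolases, and was at 2322, 2258 and 3590 FPKM in EKO-WD and 606 to 1109 FPKM elsewhere. Lipa, lysosomal acid lipase, was at 127 and 154 FPKM in EKO-WD and 31.9 to 60.2 FPKM elsewhere, a difference of 1.27 ± 0.27. Without EKO-WD replicate 3 the list held 10 genes with a higher response, and without DKO-NLD replicate 1 it held 12.

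Membrane proteins of the lysosome and the sorting machinery had 7 of 32 members with a higher response (M6pr, Npc1, Igf2r, Cd63, Lamp2, Ap1s2 and Mitf) and a median difference of 0.42. M6pr and Igf2r encode the 2 mannose 6-phosphate receptors. M6pr was at 49.7 to 52.7 FPKM in EKO-NLD, 73.3 and 83.5 in EKO-WD, 40.8 to 47.8 in DKO-NLD and 39.4 to 43.2 in DKO-WD, a difference of 0.70 ± 0.12. Npc1, which moves free cholesterol out of the lysosome, was at 22 and 25.5 FPKM in EKO-WD and 9.66 to 14.5 FPKM elsewhere, a difference of 1.03 ± 0.19. Mitf, a transcription factor that can bind E-boxes, was at 5.33 and 3.88 FPKM in EKO-WD and 2.08 to 3.21 FPKM elsewhere, a difference of 0.73 ± 0.20 (adjusted p = 0.0423, limma), and it kept the call in 4 of the 12 fits that left out 1 library. The count of 7 was 2 without EKO-WD replicate 1, 3 without DKO-NLD replicate 1 and 4 without DKO-WD replicate 1.

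**Figure D2:**
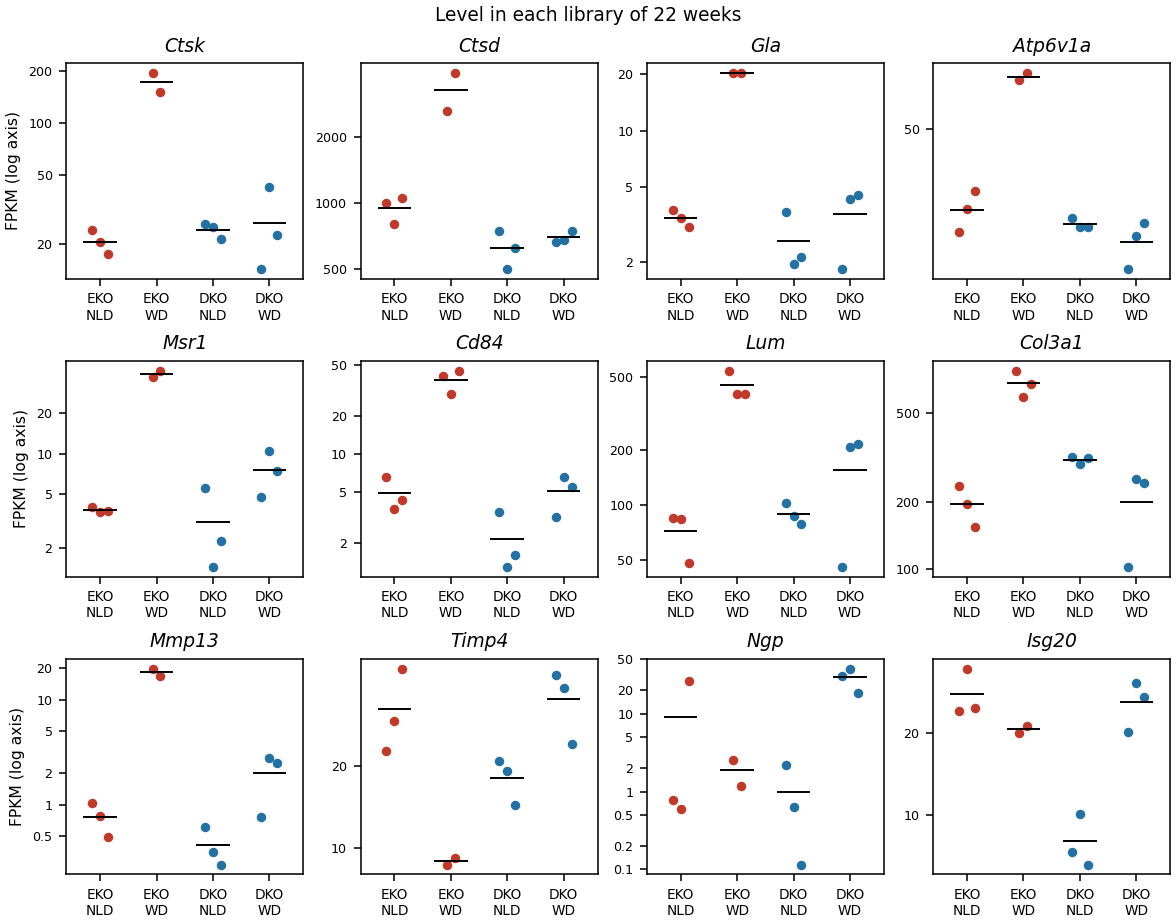
FPKM (log axis) of 12 genes in the 12 libraries of 22 weeks, 1 panel per gene, with 1 point per library and a bar at the mean of each of the 4 groups, and the partial library left out where it has no value. In the panels of Ctsk, Ctsd, Gla, Atp6v1a and Msr1 the EKO-WD points stand above all others, and in the panel of Ngp the 3 DKO-WD points (18.6 to 38.1 FPKM) stand high beside 1 EKO-NLD point of 26.1 FPKM.

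Genes of foam cell type macrophages and of sterol handling were compared next. Of 24 foam cell genes, 7 had a higher response in EKO (Ctsd, Pld3, Ctsb, Cd63, Cd9, Fabp5 and Anpep), with a median response of 1.72 in EKO and 0.27 in DKO. Ctsd, Ctsb, Cd63 and Pld3 are also members of the lysosomal lists. Fabp5, a fatty acid carrier, was at 173 to 177 FPKM in EKO-NLD, 673 and 933 in EKO-WD, 52.2 to 83.7 in DKO-NLD and 52.9 to 102 in DKO-WD, a difference of 1.89 ± 0.51 (adjusted p = 0.0392, limma). Cd9, a tetraspanin, was at 425 and 363 FPKM in EKO-WD and 84.6 to 222 FPKM elsewhere. The count was 3 without DKO-NLD replicate 1 or EKO-WD replicate 1, and 4 without DKO-WD replicate 1, EKO-NLD replicate 3 or EKO-WD replicate 3.

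In the list of sterol efflux, esterification and liver X receptor targets, 5 of 20 genes had a higher response: Npc1, Nceh1, Lipa, Soat1 and Pltp. Soat1 esterifies cholesterol for storage in droplets and Nceh1 hydrolyses those esters. Soat1 was at 4.63, 4.34 and 3.52 FPKM in EKO-NLD, 21.7, 14.4 and 21.9 in EKO-WD, 4.45, 2.62 and 2.51 in DKO-NLD and 3.32, 5.81 and 4.78 in DKO-WD, a difference of 1.53 ± 0.34. Nceh1 was at 23.4 and 22.1 FPKM in EKO-WD, 3.74 to 3.96 in EKO-NLD, 2.67 to 3.94 in DKO-NLD and 4.59 to 6.41 in DKO-WD. The exporters Abca1 and Abcg1, which hand cholesterol to apolipoprotein A-I and high-density lipoprotein, had differences of 0.94 ± 0.36 and 1.11 ± 0.45 that did not pass the test (adjusted p of 0.138 and 0.158, limma). Abcg1 went up on WD in both genotypes, by 2.33 in EKO and 1.23 in DKO. The count of 5 was 2 without EKO-WD replicate 1 and 3 without DKO-NLD replicate 1 or EKO-WD replicate 3.

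Cholesterol synthesis genes held 0 calls among 28 by limma, and 0 at an unadjusted p under 0.05, with a median difference of −0.28. Of the 17 genes of fatty acid synthesis, 1 passed, Scd4, a stearoyl-CoA desaturase. Scd4 was at 10.9 and 24.2 FPKM in EKO-WD and 0.592 to 3.16 FPKM elsewhere. Its neighbour Scd3, with a difference of 3.38 ± 0.68, was at 34.4 and 78.4 FPKM in EKO-WD, 2.25 to 4.71 in EKO-NLD, 2.36 to 3.38 in DKO-NLD and 1.53 to 7.43 in DKO-WD. The Scd genes are close paralogs and reads may be shared between them, so their levels are uncertain.

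Most macrophage and leukocyte genes went up on WD in EKO, and few of their differences of responses passed the test. Of 35 general macrophage genes, 32 went up in EKO (median response 1.92) and 5 in DKO (1.10), and 1 difference passed, that of Cd84, an adhesion receptor of leukocytes. At an unadjusted p under 0.05 the list held 23 genes with a higher response. Cd84 was at 6.63, 3.67 and 4.38 FPKM in EKO-NLD, 40.8, 29.4 and 45.2 in EKO-WD, 3.49, 1.3 and 1.6 in DKO-NLD and 3.19, 6.56 and 5.48 in DKO-WD, a difference of 1.77 ± 0.46 (adjusted p = 0.0312, limma). Itgax, the integrin CD11c, had a difference of 2.22 ± 0.65 that did not pass (adjusted p = 0.0562), with 63.8 and 98.3 FPKM in EKO-WD and 1.11 to 10.7 FPKM elsewhere. Cd68, a lysosomal glycoprotein used as a macrophage marker, had a difference of 1.5 ± 0.57 (adjusted p = 0.13). DKO-NLD replicate 1 had the highest macrophage sum of its group, 1788.5 FPKM against 689.79 and 814.82 FPKM. The count of 1 was 4 without EKO-NLD replicate 1, 3 without DKO-NLD replicate 2, 2 without DKO-WD replicate 2, 0 without DKO-NLD replicate 1, DKO-WD replicate 1, EKO-NLD replicate 2 or 3, or EKO-WD replicate 1 or 3, and 1 in the rest.

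The scavenger receptors Cxcl16, also a chemokine, and Msr1, which takes up modified lipoprotein, were the 2 of 12 in their list with a higher response, a count that moved by over 1.5 times in 9 of the 12 fits that left out 1 library. Msr1 was at 3.98, 3.71 and 3.77 FPKM in EKO-NLD, 36.9 and 41.5 in EKO-WD, 5.57, 1.44 and 2.26 in DKO-NLD and 4.79, 10.5 and 7.4 in DKO-WD. Its difference of 1.92 ± 0.54 had an adjusted p of 0.049 (limma) and passed in 3 of the 12 fits that left out 1 library. Cd36, another receptor for oxidised lipoprotein and abundant in fat, had a difference of −0.76 ± 0.54 (adjusted p = 0.409). Of the other inflammatory lists, cytokines and the inflammasome had 3 of 14 with a higher response: Il18, Il18bp, which binds and blocks interleukin 18, and Il1r1, the receptor of interleukin 1. Il18bp was at 20.2 and 34.5 FPKM in EKO-WD and 3.51 to 10.8 FPKM elsewhere. Complement had 1 of 19 (C3ar1, the C3a receptor), integrins and adhesion 1 of 15 with a higher response (Cd44, the hyaluronan receptor), and MHC class II presentation 1 of 12 (Lgmn). Each of these counts of 1 to 3 moved by over 1.5 times in 6 to 9 of the 12 fits that left out 1 library: the cytokine list held 0 without DKO-NLD replicate 1, EKO-NLD replicate 2 or 3, or EKO-WD replicate 3, and 1 without DKO-NLD replicate 2 or 3, DKO-WD replicate 1 or 3, or EKO-WD replicate 1. CC chemokines, chemokine receptors, Fc gamma receptors and resident adventitial macrophage genes held 0 calls by limma among 15, 9, 15 and 15 members, and 3, 1, 8 and 2 with a higher response at an unadjusted p under 0.05, against 14.7% of all genes. Mast cell genes had 1 of 7, against 3.57% of all genes: Hpgds, the hematopoietic prostaglandin D synthase, at 13.7 and 14.3 FPKM in EKO-WD and 1.13 to 3.63 FPKM elsewhere. The mast cell list as a whole had a median response of −0.46 in EKO and −0.52 in DKO. Its median difference was 0.05, with 4 of 7 positive, and 1 gene was higher and 1 lower at an unadjusted p under 0.05.

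**Figure D3:**
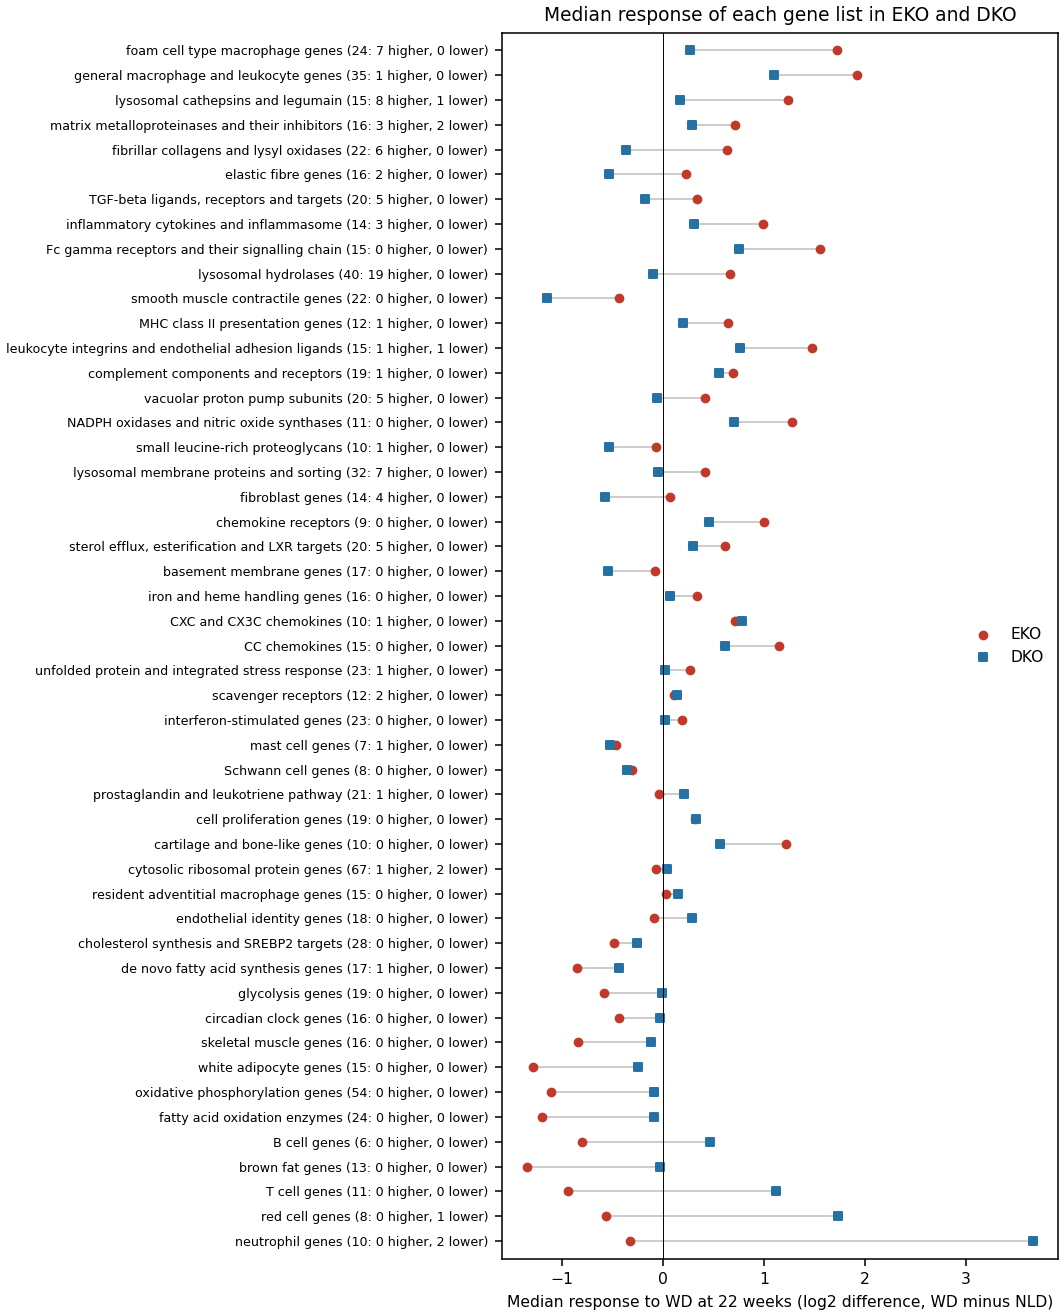
Median response to WD at 22 weeks over the tested members of each of the 49 gene lists, in log2(FPKM + 1), with a circle for EKO and a square for DKO. The circle lies to the right of the square for general macrophage genes (1.92 and 1.10) and far to its left for neutrophil genes (−0.33 and 3.66).

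Matrix genes formed the other group with many calls. Of 22 fibrillar collagens and lysyl oxidases, 6 had a higher response in EKO (Col3a1, Col1a1, Col1a2, Col5a1, Col5a2 and Loxl2), with median responses of 0.64 in EKO and −0.36 in DKO. Col3a1 was at 235, 196 and 155 FPKM in EKO-NLD, 771, 588 and 675 in EKO-WD, 317, 295 and 313 in DKO-NLD and 102, 252 and 243 in DKO-WD. All 3 EKO-WD libraries lay above all others and all 3 DKO-WD libraries lay below DKO-NLD, and the difference was 2.54 ± 0.46 (adjusted p = 0.0051, limma). Col1a1, the main collagen chain of scars and the adventitia, was at 738, 580 and 747 FPKM in EKO-WD, 169 to 270 in EKO-NLD, 238 to 354 in DKO-NLD and 90.1 to 213 in DKO-WD. Lum, the proteoglycan lumican, was at 540, 403 and 404 FPKM in EKO-WD, 47.9 to 84.5 in EKO-NLD, 78.3 to 102 in DKO-NLD and 45.7, 207 and 215 in DKO-WD. The list of fibroblast genes had 4 of 14 with a higher response, Lum and the 3 collagens Col3a1, Col1a1 and Col1a2, all of which encode matrix proteins. That count was 2 without EKO-WD replicate 1, and Lum kept its call in 2 of the 12 fits that left out 1 library.

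Of 16 elastic fibre genes, Eln, elastin, and Fbn1, fibrillin 1, had a higher response. Eln was at 445, 423 and 439 FPKM in EKO-NLD, 1103 and 1410 in EKO-WD, 501, 607 and 501 in DKO-NLD and 111, 382 and 473 in DKO-WD, a difference of 2.49 ± 0.66. The list held 7 such genes without DKO-WD replicate 2, 0 without EKO-WD replicate 1 or 3, and 1 without each replicate of DKO-NLD, DKO-WD replicate 1, or EKO-NLD replicate 1 or 2. Of 20 genes of the TGF-beta pathway, 5 had a higher response: the ligands Tgfb2 and Inhba, the receptor Tgfbr1, and the matrix targets Postn and Fn1. Postn, periostin, was at 146, 170 and 130 FPKM in EKO-NLD, 301 and 203 in EKO-WD, 158, 245 and 177 in DKO-NLD and 30, 91.5 and 89.1 in DKO-WD, and it went down in DKO (−1.58, adjusted p = 0.0239) with no call in EKO (0.74, adjusted p = 0.16). The TGF-beta count was 8 without DKO-WD replicate 2, 0 without EKO-WD replicate 1, and 2 or 3 in the other fits except the one without DKO-WD replicate 3 or DKO-NLD replicate 3.

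The matrix metalloproteinases and their inhibitors moved in both directions, with 3 of 16 higher and 2 lower. Mmp13, a collagenase, was at 1.03, 0.777 and 0.491 FPKM in EKO-NLD, 19.8 and 16.7 in EKO-WD, 0.618, 0.358 and 0.269 in DKO-NLD and 0.757, 2.8 and 2.5 in DKO-WD, and its difference was 2.43 ± 0.39 (adjusted p = 0.00299, limma). Mmp14, which sits on the cell surface and activates Mmp2, was at 82.8, 85.6 and 111 FPKM in EKO-WD and 19.1 to 37.8 FPKM elsewhere. Mmp2, a gelatinase, had a difference of 1.88 ± 0.43. Timp4, an inhibitor of these enzymes, had a lower response in EKO: 22.7, 29.4 and 45.9 FPKM in EKO-NLD, 8.67 and 9.18 in EKO-WD, 21, 19.1 and 14.4 in DKO-NLD and 43.4, 39 and 24.1 in DKO-WD, a difference of −2.61 ± 0.48. The calls of Mmp13, Mmp14 and Timp4 held in each of the 12 fits that left out 1 library. Mmp9, a gelatinase of neutrophils and macrophages, kept its call in 5, and the lower count was 1 without DKO-NLD replicate 2 or 3, DKO-WD replicate 1 or 2, EKO-NLD replicate 3, or EKO-WD replicate 1 or 3.

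Smooth muscle genes moved with the matrix genes in DKO. The summed level of 22 contractile genes was 6344.4 to 8879.9 FPKM in EKO-NLD, 5253.5 to 5385.3 in EKO-WD, 8046.5 to 11861 in DKO-NLD and 2317.3 to 5840.3 in DKO-WD, where the lowest value was that of replicate 1, the library that also had the lowest Col3a1, Eln and Postn. Acta2, smooth muscle actin, was at 434, 1638 and 1089 FPKM in DKO-WD and 2758 to 4089 FPKM in DKO-NLD, and its difference of 1.44 ± 0.55 did not pass (adjusted p = 0.136, limma). The list held 0 calls, with 3 higher and 1 lower at an unadjusted p under 0.05. Without DKO-WD replicate 2 it held 3 higher calls and 1 lower call. The part of smooth muscle content in the matrix differences was not tested. Without DKO-WD replicate 1 the estimates of Col3a1, Col1a1, Eln, Lum and Postn kept their sign, and Col3a1 and Col1a1 kept the call in all 12 fits that left out 1 library.

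The genes with a lower response in EKO were fewer, and in 22 of the 105 DKO went up. Neutrophil genes had a median response of 3.66 in DKO and −0.33 in EKO. Of 10 tested members 7 went up in DKO, 2 differences passed (Ltf and Mmp9), and 8 had a lower response at an unadjusted p under 0.05. Ltf, lactoferrin of neutrophil granules, was at 0.522, 0.58 and 10.6 FPKM in EKO-NLD, 1.62 and 1.05 in EKO-WD, 1.16, 0.769 and 0.0872 in DKO-NLD and 128, 16.7 and 8.25 in DKO-WD, a difference of −4.49 ± 1.23 (adjusted p = 0.0448, limma). Ngp, another granule protein, was at 31, 38.1 and 18.6 FPKM in DKO-WD and 0.116 to 2.2 FPKM in DKO-NLD, with 26.1 FPKM in EKO-NLD replicate 3, and its difference of −4.63 ± 1.39 did not pass (adjusted p = 0.0641). The summed level of the list was 442.41 to 1128.1 FPKM in DKO-WD, 15.792 to 56.563 in DKO-NLD, 118.6 to 136.06 in EKO-WD and 27.153 to 769.51 in EKO-NLD, so that 1 EKO-NLD library lay within the range of DKO-WD. Its count of 2 was 4 without EKO-NLD replicate 1 or 2, 1 without DKO-NLD replicate 1 or DKO-WD replicate 2, and 0 without DKO-NLD replicate 2 or 3, DKO-WD replicate 1, EKO-NLD replicate 3 or EKO-WD replicate 1 or 3.

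Outside that list, Slfn4, a myeloid gene of the Schlafen family, was at 5.59, 7.39 and 3.8 FPKM in DKO-WD and 0.25 to 0.794 FPKM in DKO-NLD, with 0.586 to 3.72 in EKO-NLD and 0.828 to 1.8 in EKO-WD. Chi3l1, a chitinase-like protein, was at 4.35, 6.82 and 9.29 FPKM in DKO-WD and 0.186 to 3.8 FPKM elsewhere, a difference of −1.96 ± 0.38. Isg20, an exonuclease induced by interferon, was at 24.2, 34.7 and 24.9 FPKM in EKO-NLD, 20.1 and 21.3 in EKO-WD, 7.29, 10.1 and 6.55 in DKO-NLD and 20.3, 30.6 and 27.1 in DKO-WD, a difference of −1.99 ± 0.30 (adjusted p = 0.00165, limma). DKO-NLD stood alone as the low group, and the 23 interferon-stimulated genes as a list held 0 calls with a median difference of 0.17 and 1 lower at an unadjusted p under 0.05. Ddit4, a stress-induced inhibitor of mTOR signalling, was at 32, 41.9 and 25.1 FPKM in DKO-WD and 8.97 to 21.4 FPKM in the 9 others. Cebpb, a transcription factor of fat and myeloid cells, fell in EKO: 68.5, 56.9 and 57.8 FPKM in EKO-NLD, 11.5 and 18.4 in EKO-WD, 38.1 to 56.7 in DKO-NLD and 42.1 to 76.3 in DKO-WD, a difference of −2.21 ± 0.52.

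Lymphocyte genes had lower estimates in EKO without a call. The 11 T cell genes had a median difference of −2.03 and 0 positive values, held 0 calls by limma and 7 at an unadjusted p under 0.05, and their summed level was 14.2 to 90 FPKM in DKO-WD and 19.3 to 98.3 FPKM in EKO-NLD. Cd8b1, a chain of the CD8 co-receptor, was at 10.8, 7.36 and 2.31 FPKM in EKO-NLD, 0.949 and 1.01 in EKO-WD, 0.183 to 0.434 in DKO-NLD and 5.83, 2.89 and 0.595 in DKO-WD. The B cell genes had a median of −1.19 over 6, 0 calls and 1 higher at an unadjusted p under 0.05. These levels were led by single libraries of a group, DKO-WD replicate 1 for Ltf and Cd8b1.

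Red cell genes moved with the libraries as well. Of 8 tested, 1 had a lower response, Hba-a2, an alpha globin, and 7 at an unadjusted p under 0.05. Hba-a2 was at 1221, 1922 and 915 FPKM in EKO-NLD, 853, 367 and 516 in EKO-WD, 77.4, 348 and 95.1 in DKO-NLD and 170, 704 and 1043 in DKO-WD. The list held 6 lower calls without DKO-WD replicate 1 and 0 without DKO-NLD replicate 1 or 3, DKO-WD replicate 3, EKO-NLD replicate 2 or EKO-WD replicate 1 or 2. The summed level spanned 3795 to 55961 FPKM over the libraries and its part in other genes' differences was not tested.

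Fat and mitochondrial genes had negative medians with 0 calls by limma. The 54 genes of oxidative phosphorylation had a median difference of −1.06, 0 positive values and 26 with a lower response at an unadjusted p under 0.05, while 31 of them went down on WD in EKO and 0 in DKO. Ndufb2, a subunit of complex I, was at 219, 212 and 276 FPKM in EKO-NLD, 87 and 122 in EKO-WD, 121, 112 and 157 in DKO-NLD and 153, 99 and 145 in DKO-WD, a difference of −1.19 ± 0.34 (adjusted p = 0.0517). The list held 11 calls without DKO-WD replicate 2, 3 without EKO-WD replicate 3 and 0 otherwise, or 1 when the libraries were rescaled by their median ratio. Brown fat genes had a median difference of −1.37, and 1 of 13 was lower at an unadjusted p under 0.05, near the 7.28% of all genes. Their summed level was 4058.9 to 7220.9 FPKM in EKO-NLD and 1009.4 to 3133 FPKM in EKO-WD against 2482.9 to 5902.2 FPKM in DKO. Ucp1, the uncoupling protein of brown fat, was at 1317 to 2551 FPKM in EKO-NLD, 310 and 1169 in EKO-WD and 940 to 2234 in DKO. White adipocyte genes had a median of −0.84 over 15, with 3 lower at an unadjusted p under 0.05, and fatty acid oxidation enzymes −1.15 over 24, with 5, against 7.28% of all genes. The part of attached fat in these values was not tested.

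The other lists held few calls. Their counts at an unadjusted p under 0.05 stand beside 14.7% higher and 7.28% lower over all genes. Endothelial identity genes held 0 calls by limma among 18 (3 lower at an unadjusted p under 0.05), basement membrane 0 among 17 (5 higher), proliferation 0 among 19 (0), glycolysis 0 among 19 (1 higher) and the circadian clock 0 among 16 (2 lower). NADPH oxidases and nitric oxide synthases held 0 among 11 (4 higher), iron and heme handling 0 among 16 (4 higher), cartilage and bone-like genes 0 among 10 (1 higher and 2 lower), skeletal muscle 0 among 16 (0) and Schwann cell genes 0 among 8 (1 higher). CXC chemokines (Cxcl16), the prostaglandin pathway (Hpgds) and small leucine-rich proteoglycans (Lum) each had 1 call, of a gene described above. The unfolded protein response had 1 of 23, Pdia3, a protein disulfide isomerase. Of 67 cytosolic ribosomal protein genes Rpl31 had a higher and Rpl36 and Rplp2 a lower response, with a median of −0.11 for the list. Over all 49 lists the difference of responses was called positive for 74 of 852 genes and negative for 8. Thus 383 of the 457 and 97 of the 105 genes belonged to none of the lists.

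The largest differences by size were those of small RNAs and of 1 gene named as a ribosomal pseudogene. Of 223 tested small RNAs 14 had a higher and 5 a lower response. They made up 3.06% of the genes with a higher response, 4.76% of those with a lower one and 1.74% of all tested genes. Many libraries listed them at 0, so that no fold is given here. Mir142 (chr11:87756864-87756927), a microRNA gene of hematopoietic cells, was listed at 0.901, 0 and 0 FPKM in EKO-NLD, 431 and 361 in EKO-WD replicates 1 and 3 and 0 in all 6 DKO libraries, and its value of 0 in the partial library lies before the point where that column stops. With that 0 kept, the call of Mir142 was lost (adjusted p of 0.0979 with zeros missing only after the stop and 0.376 with all zeros as deposited, limma). Mir27b was at 161, 164 and 404 FPKM in EKO-WD, 0, 1.75 and 0 in EKO-NLD, 137, 0 and 288 in DKO-NLD and 0, 8.16 and 0 in DKO-WD. Mir140, a microRNA of cartilage, was at 961, 267 and 362 FPKM in EKO-NLD and at 0 to 5.31 FPKM in the 8 other readable libraries. The levels above are those of gene entries from 50 nt reads, and mature microRNAs of 21 to 23 bases were not measured apart from them. The mature sequences listed for these 3 genes in RefSeq, with the seed (bases 2 to 8) in capitals, share no seed. For Mir140 only miR-140-3p was listed, so its other arm was not compared.
miR-142a-5p: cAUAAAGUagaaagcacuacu
miR-142a-3p: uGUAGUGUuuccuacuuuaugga
miR-27b-5p: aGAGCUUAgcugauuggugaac
miR-27b-3p: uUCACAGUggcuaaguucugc
miR-140-3p: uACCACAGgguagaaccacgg

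Rpl31-ps12, named as a pseudogene of Rpl31 and listed as protein-coding in RefSeq, was at 105, 128 and 109 FPKM in EKO-NLD, 0 and 0.307 in EKO-WD, 0 in all 3 DKO-NLD libraries and 374, 462 and 413 in DKO-WD, while Rpl31 itself was at 233 to 261 FPKM in EKO-NLD, 249 to 295 in EKO-WD, 99.4 to 118 in DKO-NLD and 41.2 to 54.3 in DKO-WD. The groups did not overlap for Rpl31-ps12 except that both low groups were at or near 0. Near-identical copies can share reads, so both values are uncertain, and the call of Rpl31 (1.36 ± 0.20, adjusted p = 0.00124, limma) moved opposite to that of its copy.

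The same contrast at 6 weeks, in 13 other libraries, called 4 genes (0.0313%). Mecom, a transcription factor gene, Rpl35 and Scarna8 had a higher and Gm5506 a lower response in EKO. Mecom was the 1 of them also called at 22 weeks, with 1.57 at 6 and 1.84 at 22 weeks. The 107 lysosomal genes had a median of 0.02 at 6 weeks against 0.62 at 22 weeks, the foam cell genes −0.38 against 1.5 and the fibrillar collagens 0.39 against 0.92. A call at 22 weeks without one at 6 weeks is no test of time, so the difference between the 2 contrasts was tested: 49 genes passed (0.383%), 34 with a higher value at 22 weeks and 15 with a lower one. Of these, 32 also had a higher and 13 a lower response at 22 weeks. Atp6v1a was the lysosomal gene among them, with −0.04 at 6 and 1.14 at 22 weeks (adjusted p = 0.0215 for the difference of 1.18, limma). Mmp13 rose from −0.64 to 2.43 (adjusted p = 0.0124) and Timp4 fell from 0.72 to −2.61 (adjusted p = 0.0279). For Ctsk and Ctsl the time difference of 2.83 and 2.70 did not pass (adjusted p of 0.0632 for both), and for Ctsd 1.67 did not (adjusted p = 0.0504).

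**Figure D4:**
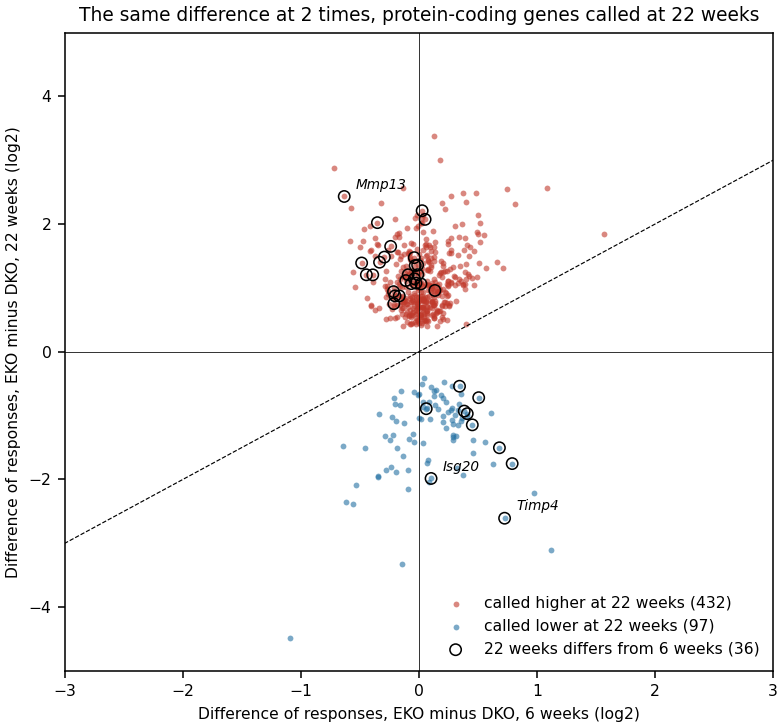
Difference of responses at 6 weeks (x axis) against 22 weeks (y axis), in log2(FPKM + 1), for the 529 genes called at 22 weeks that RefSeq lists as protein-coding (432 higher and 97 lower), with the 36 that also passed the time test circled, a dashed line of equal values and Rpl31-ps12 outside the range. Most points lie near 0 along the x axis, and since the genes were chosen for the y axis their height is a description.

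The counts depended on single libraries. When 1 of the 12 libraries was left out, between 177 (without EKO-WD replicate 1) and 876 (without DKO-WD replicate 2) genes had a higher response in EKO, and between 28 and 202 a lower one. Without DKO-NLD replicate 1, which had the highest macrophage sum of its group, the counts were 196 and 34, and without DKO-WD replicate 1, with the lowest smooth muscle sum, 237 and 60. Without EKO-WD replicate 3 they were 276 and 153, without EKO-NLD replicate 3 279 and 43, and without the partial library 491 and 122. All 457 and 105 genes kept their sign in each of these fits, as did 9148 of all 12797 tested genes (71.5%). The 457 and 105 were chosen by the same contrast on the same libraries, so their kept sign is a description. Ctsk, Ctsl, Ctsd, Ctsb, Gla, Atp6v1a, M6pr, Npc1, Pld3, Col3a1, Col1a1, Col5a2, Loxl2, Mmp13, Mmp14, Timp4, Isg20 and Chi3l1 kept the call in all 12.

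**Figure D5:**
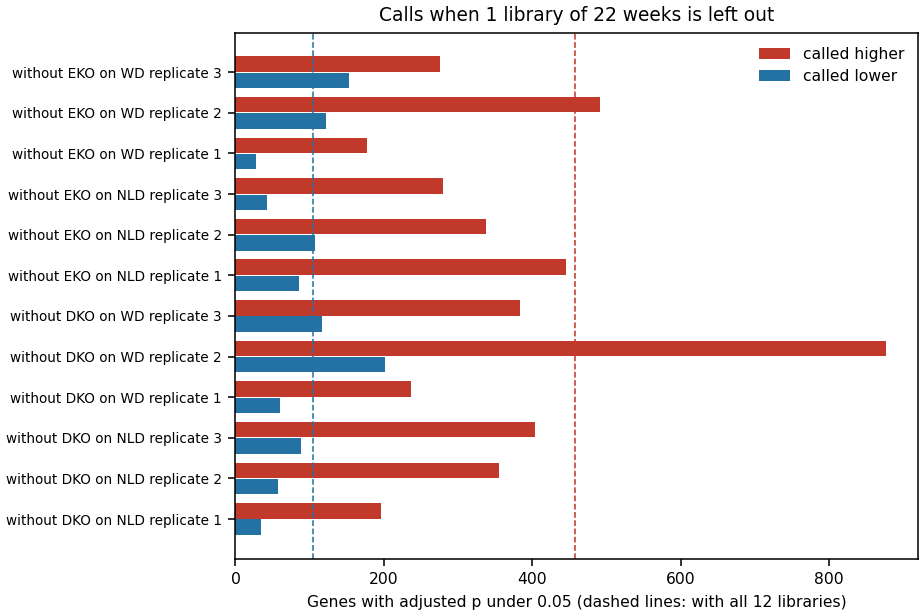
Number of genes (x axis) with a higher and a lower response to WD in EKO than in DKO at 22 weeks, 1 pair of bars for each of the 12 fits that left out 1 library, with dashed lines at the counts with all libraries (457 and 105). The counts of higher response span 177 to 876.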

How the data were processed

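Gene expression was measured in 25 aorta libraries by RNA sequencing. The authors aligned the reads to mm10 and deposited FPKM values per gene made with Cufflinks (the submitters' processing notes name TopHat 1.3.2 with Bowtie 0.12.8, Cuffdiff, and SAMtools 0.1.19). The gene models are not given in the sources used here, depth is unknown, and the strand of the reads was not stated. Values were taken as log2(FPKM + 1). Of 23284 genes, 12797 averaged 1 FPKM or more and were fitted with limma 3.58.1 in R 4.3.3 with 1 mean per group over all 25 libraries, which share the spread, with trended and robust moderation and Benjamini-Hochberg adjustment over all genes. Zeros of the partial library were missing: its values stop within chromosome 15, 70 of the missing zeros of tested genes lie before the stop and 8705 after it, and over 2742 genes its ratio to the other 2 replicates had a median of 0.971. Code checks were made on simulated data. Figures used Python 3.11.15 and matplotlib 3.10.9.

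Genes were named by a rule: up to 15 per direction with the largest called difference, a mean of at least 5 FPKM in 1 of the 4 groups and a sign kept without each library, the 4 members of each list with the smallest p, and Apoe and Apoa1. Genes outside it (Abca1, Abcg1, Cd36, Cd68, Itgax, Acta2 and others described for their role or for protein-coding genes alone) were chosen after their values were seen. The members, the 49 lists and the tests were chosen with earlier results of these data known. Positions and sequences are from RefSeq (GRCm38.p6), where 20722 gene names matched by symbol, 2317 by an older name and 245 not at all. The 13 planned and 6 added alternatives are given in the closing section. A few genes that the rule names are not reported here.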

Additional observations from a re-analysis of the deposited data

Results flagged for a closer look

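The difference of responses changed between 6 and 22 weeks by limma's test over all genes for the named genes that follow (22-week minus 6-week value on the log2 scale, with adjusted p). Among genes of higher value at 22 weeks were Mmp13, a collagenase (3.07, 0.0124), Atp6v1a of the proton pump (1.18, 0.0215) and Rpl31 (1.37, 0.0305). Hif1a, the oxygen-regulated transcription factor (1.05, 0.0295), and Actr2 and Actr3 of the actin-nucleating Arp2/3 complex (1.04, 0.0461 and 0.966, 0.0486) were named after their values were seen. Hif1a was at 30.2, 25.6 and 26.6 FPKM in EKO-WD and 12.9 to 19 FPKM in the 9 other libraries of 22 weeks. Among genes of lower value were Timp4 (−3.33, 0.0279), Isg20 (−2.09, 0.027) and Rpl36 (−1.31, 0.0461).

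Rpl31-ps12, named as a pseudogene, had a change of −15.7 (adjusted p = 9.28e-19, limma), and the small RNAs Snord69 33.2 (0.00146), Mir142 8.32 (1.25e-11), Mir140 −10.5 (0.00254) and Mir1982 −7.72 (0.0215). These 5 are listed at 0 in some or all libraries of at least 1 group, and their log2 values depend on the pseudocount. The 22-week call of Mir142 was lost when its 0 in the partial library was kept (adjusted p = 0.0979, limma). Groups of 3 libraries were not screened for single outlying values.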

How the results depend on the processing

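With all libraries the difference of responses was called positive for 457 genes and negative for 105. With the zeros of the partial library kept as deposited the counts were 19 and 6 and the median difference of all genes was −0.71, by construction, since 8775 genes then hold a 0 in EKO-WD replicate 2. Among called genes the sign reversed there for Ctsd (−2.30), Atp6v1g1 (−1.63), Pdia3 (−1.58), Lamp2 (−1.47), M6pr (−1.40), Fabp5 (−1.32), Pltp (−1.31), Cd9 (−1.15), Lipa (−1.11), Eln (−0.94), Atp6v1a (−0.88), Atp6ap2 (−0.80), Col1a2 (−0.71), Igf2r (−0.68), Pld3 (−0.61), Anpep (−0.56), Npc1 (−0.52), Mmp2 (−0.41), Postn (−0.33), Cd44 (−0.23), Fbn1 (−0.16), Tgfbr1 (−0.16) and Mitf (−0.0905). Of 108 genes examined singly, 83 were called with all libraries, and 0 of these 83 reversed under any other alternative. The 83 were called by the same contrast, so their kept sign is a description. The sign of genes that were not called was not judged, and that of Apoe, for one, changed. The counts were 53 and 19 when the 12 libraries were fitted alone, where 62 of the 83 lost the call, 1586 and 333 with array weights, 121 and 19 at an adjusted p under 0.01, and 253 and 65 with an absolute difference of at least 1. Rescaling by median ratios gave 374 and 139, 72.9% of calls being higher in place of 81.3%. Without 1 replicate the counts ran from 177 to 876 and from 28 to 202. With the replicate number as a block they were 272 and 51; not every same-number pair had a correlation over 0.1 (median r of 0.0832 over 18 such pairs, −0.189 to 0.3, and −0.052 over 36 others), so the numbers were not taken as pairs, although 8 of 12 libraries were closest to their own number, a hint from the data and not the design. Pseudocounts of 0.1 and 5 gave 342 and 677 higher and 76 and 149 lower, a filter at 5 FPKM 367 and 102, no filter 538 and 117, and no trend or robust estimation 452 and 109. Alternatives added after seeing the data gave 459 and 106 with the sex of the library as a covariate and the partial library left out, 452 and 105 with zeros missing only after the stop, where Mir142 lost its call, 429 and 98 with protein-coding genes alone, and 451 and 151 with the partial library left out and median-ratio rescaling. The count of 4 at 6 weeks was 12 with array weights and 4 to 8 without 1 replicate. The count of 49 for the time difference was 26 and 204 with pseudocounts of 0.1 and 5, 1026 with array weights and 29 to 76 without 1 replicate. The cause of these shifts was not tested.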

Other observations

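Families outside the lists, chosen after their values were seen and given as a description, also had members with a higher response in EKO. Over all 12797 tested genes, 7051 differences were positive, and 3.57% of genes passed the test with a higher response. All 10 tested annexins, calcium-dependent membrane-binding proteins, had positive differences, and Anxa1, Anxa2, Anxa3, Anxa4 and Anxa5 passed the test, with a median of 0.64 for the family. Of 29 sorting nexins, which act in endosomal sorting, Snx1, Snx4, Snx5, Snx7 and Snx12 passed, with a median of 0.38. Of the genes of actin filaments, Actr2 and Actr3 passed among 10 of the Arp2/3 complex (median 0.48), and Capg, Capza1 and Capza2 among 4 capping proteins (median 0.70).

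Gimap genes, GTPases of lymphocytes, went the other way: Gimap1, Gimap4, Gimap5 and Gimap6 of 7 tested had a lower response in EKO, against 0.821% of all genes. The family had 0 positive values and a median response of −0.30 in EKO and 0.89 in DKO. The summed level of the T cell list, 14.2 to 90 FPKM over the 3 DKO-WD libraries and 8.87 to 12.8 FPKM in DKO-NLD, moved with them, and its part in these values was not tested.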
